A study of Homo sapiens with 4 samples.

Results

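The genes described here serve antigen presentation by MHC class I, the system by which a cell shows fragments of its own proteins to T cells. They were 9 of the 36337 gene names on the array: HLA-B, HLA-C, HLA-E, B2M, TAP1, TAP2, TAPBP, NLRC5 and ERAP1. Every non-control probe carrying one of these names was kept, which gave 18 probes, and all 9 symbols were found in the RefSeq gene table. GIST-T1, the established cell line studied, was derived from a human gastrointestinal stromal tumor (GIST). It was nucleofected with 100 pmol of either a miR-335 mimic, made to stand in for the mature microRNA, or the mirVana negative control RNA, and RNA was taken 48 h later. Each group had 2 arrays, labelled from 100 ng of total RNA with a single dye. It is a single tumor line in culture, which has no host tissue around it. The titles, the transfection field and a description line of the mimic arrays name miR-335, whereas another description line names a miR-34a mimic, and the mimic arrays are called here as their titles call them. The labels do not say whether the 2 replicates of a group were separate cultures, so the p-values measure the spread between these arrays, which may be technical.

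In the class I pathway, proteins are cut by the proteasome, and the peptides are carried into the endoplasmic reticulum by a transporter formed by TAP1 and TAP2. Tapasin, encoded by TAPBP, links that transporter to an empty class I molecule, and the aminopeptidase ERAP1 trims the peptides to fit. A class I molecule joins a polymorphic heavy chain, such as HLA-B or HLA-C, or the less variable HLA-E, with the invariant light chain beta-2-microglobulin, encoded by B2M. NLRC5 is a transactivator that works at class I promoters together with the RFX, CREB and NF-Y proteins, and interferons raise many of these genes through factors that include IRF1. Loss of class I from the surface is known as a way for tumor cells to avoid T cells.

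The sequences of the microRNA and of the regulatory stretches of the members are shown first, since the comparison is of a microRNA mimic and several members share promoter elements. The mature forms of miR-335 below are from RefSeq (GRCh38.p14), written 5′ to 3′ with the seed, bases 2 to 8, in capitals. The 5p form lies at chr7:130496126-130496148 and the 3p form at chr7:130496162-130496183, both on the plus strand, and their seeds differ.
hsa-miR-335-5p: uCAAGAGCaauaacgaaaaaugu
hsa-miR-335-3p: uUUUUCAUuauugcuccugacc
The DNA letters that pair with the 5p seed, GCTCTTG, were present in 0 of the 18 member probes and in 0.437% of all 50599 probes on the array. Those for the 3p seed, ATGAAAA, were in 0 of the 18 and in 1.22% of all probes. A probe holds 60 bases of a transcript, so the rest of each transcript was not searched.

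Promoter sequences, running from 250 bases before to 50 bases after a start site, were in the RefSeq table for 7 of the 9 genes, as 9 entries, since TAP1 and ERAP1 had 2 each. Those of HLA-E and NLRC5 are not shown. Both strands were searched for 4 sets of letters. The interferon repeat, GAAA then any 2 bases then GAAA, as in interferon-stimulated response elements, was in 3.57% of all 35116 promoters. TGACG, the core of a cAMP response element, was in 24.6%, and CCAAT, the NF-Y box, in 34.6%. A form of the NF-kB site, GGG then any 2 bases then TTTCC, was in 1.91%. The stretches below are chosen to set TAP1, TAPBP and HLA-B, whose brightest probes read lower with the mimic, beside B2M and TAP2, whose probes did not separate the groups. Capitals mark those letters, and a match may lie on either strand. They are, in order, chr6:31357216-31357300 (minus strand), chr15:44711358-44711487 (plus strand), chr6:32853752-32853954 (minus strand), chr6:32838755-32838812 (minus strand) and chr6:33314079-33314149 (minus strand), all on GRCh38.p14.
HLA-B: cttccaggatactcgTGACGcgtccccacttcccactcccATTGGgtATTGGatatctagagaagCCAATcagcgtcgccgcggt
B2M: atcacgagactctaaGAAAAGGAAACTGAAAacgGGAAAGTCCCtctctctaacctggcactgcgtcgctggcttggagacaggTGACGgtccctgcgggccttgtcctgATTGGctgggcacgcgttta
TAP1: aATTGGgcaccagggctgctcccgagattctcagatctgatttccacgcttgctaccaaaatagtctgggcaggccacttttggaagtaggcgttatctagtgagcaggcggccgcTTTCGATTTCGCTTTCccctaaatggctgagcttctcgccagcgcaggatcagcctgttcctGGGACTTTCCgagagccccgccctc
TAP2: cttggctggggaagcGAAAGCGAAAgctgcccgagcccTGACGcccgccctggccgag
TAPBP: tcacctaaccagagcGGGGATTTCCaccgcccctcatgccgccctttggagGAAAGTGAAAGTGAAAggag
B2M held all 4 sets of letters, including 2 overlapping copies of the interferon repeat, the copy farther from the start site beginning at base -144. TAP1 and TAPBP each held 2 overlapping copies of that repeat and an NF-kB form. TAP2 held 1 copy of the repeat and a TGACG. HLA-B and HLA-C held TGACG and several CCAAT boxes, with no match to the exact repeat in this window. The TAP1 stretch is from 1 of its 2 entries, and the other entry held none of the letters. ERAP1 held 1 copy of the repeat, at base 3 after the start site, and a CCAAT box in 1 entry, and none in the other. Letters of the interferon repeat were present in TAP1, TAPBP, B2M, TAP2 and ERAP1. Whether any of these letters relate to the differences described below was not tested.

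Levels are given below as log2 of the scanner's processed signal minus the 75th percentile of the array, so that 0 is that percentile. Differences are mimic minus control on that log2 scale, with the standard error and the Benjamini-Hochberg adjusted p of limma over all 20328 tested probes. Between 40.3% and 41.9% of probes were well above background per array, and no non-control spot was saturated. All 4 arrays came from 1 slide and 1 scan. The controls occupied positions 1 and 2 and the mimics positions 3 and 4, so position and group cannot be told apart. In bulk RNA, fewer transcripts per cell and fewer cells expressing a gene cannot be told apart either.

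The heavy chain genes read lower with the mimic on every probe, at 81.3% to 88.4% of the control level, and no probe passed the test. HLA-B was covered by 3 probes. Probe A_33_P3424800 lies at chr6:31321663-31321722 on the minus strand (hg19, as in the files), and read 4.05 and 4.04 on the mimic arrays and 4.26 and 4.26 on the control arrays. The difference was -0.22 (SE 0.04, adjusted p = 0.0814). The replicates of either group differed by under 0.01 on this probe, where the median over all tested probes was 0.06 in each group. Probe A_33_P3379947, at chr6:31321653-31321712, read 3.18 and 3.26 with the mimic and 3.47 and 3.38 in the controls, a difference of -0.21 (adjusted p = 0.152). Both mimic arrays lay under both control arrays on each. The remaining, dimmer HLA-B probe, A_33_P3399208, for which the files give no position, read -0.31 and -0.46 with the mimic against -0.12 and -0.06, a difference of -0.30 (adjusted p = 0.123).

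HLA-C, the other classical heavy chain measured here, had 2 probes. Probe A_33_P3330109, at chr6:31236617-31236676 on the minus strand, read 4.68 and 4.66 with the mimic and 4.90 and 4.88 in the controls. The groups did not overlap, and the difference was -0.22 (SE 0.04, adjusted p = 0.0818). The other probe named HLA-C, A_33_P3424803, read 4.87 and 4.87 against 5.07 and 5.02, a difference of -0.18 (adjusted p = 0.115). Its position in the files, chr6:31321644-31321703, is that of the HLA-B probes, and 41 of its bases run identically through the brightest HLA-B probe. The 2 HLA-B probes with positions share 50 aligned bases with 1 mismatch. These 3 probes therefore do not measure HLA-B and HLA-C separately. A_33_P3330109 shares no run of over 10 bases with any other HLA member probe. Whether it also binds transcripts of other heavy chains was not tested.

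HLA-E, a class I chain that presents peptides from other class I leader sequences to natural killer cells, had 1 probe, at chr6:30460729-30460788 on the plus strand. It read 3.88 and 3.89 with the mimic and 4.18 and 4.06 in the controls. The mimic arrays lay under the controls, with control 1 the higher of the pair, and the difference was -0.23 (SE 0.06, adjusted p = 0.126). B2M encodes the light chain shared by all of these. Its probe, at chr15:45007773-45007832 and printed in 10 spots, read 4.93 and 4.98 with the mimic and 4.99 and 4.97 in the controls. The groups overlapped, and the difference was -0.02 (SE 0.04, adjusted p = 0.753), with a 95% interval from -0.14 to 0.09. The interval of the brightest HLA-B probe ran from -0.32 to -0.11. The difference between these differences was not tested.

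**Figure D1:**
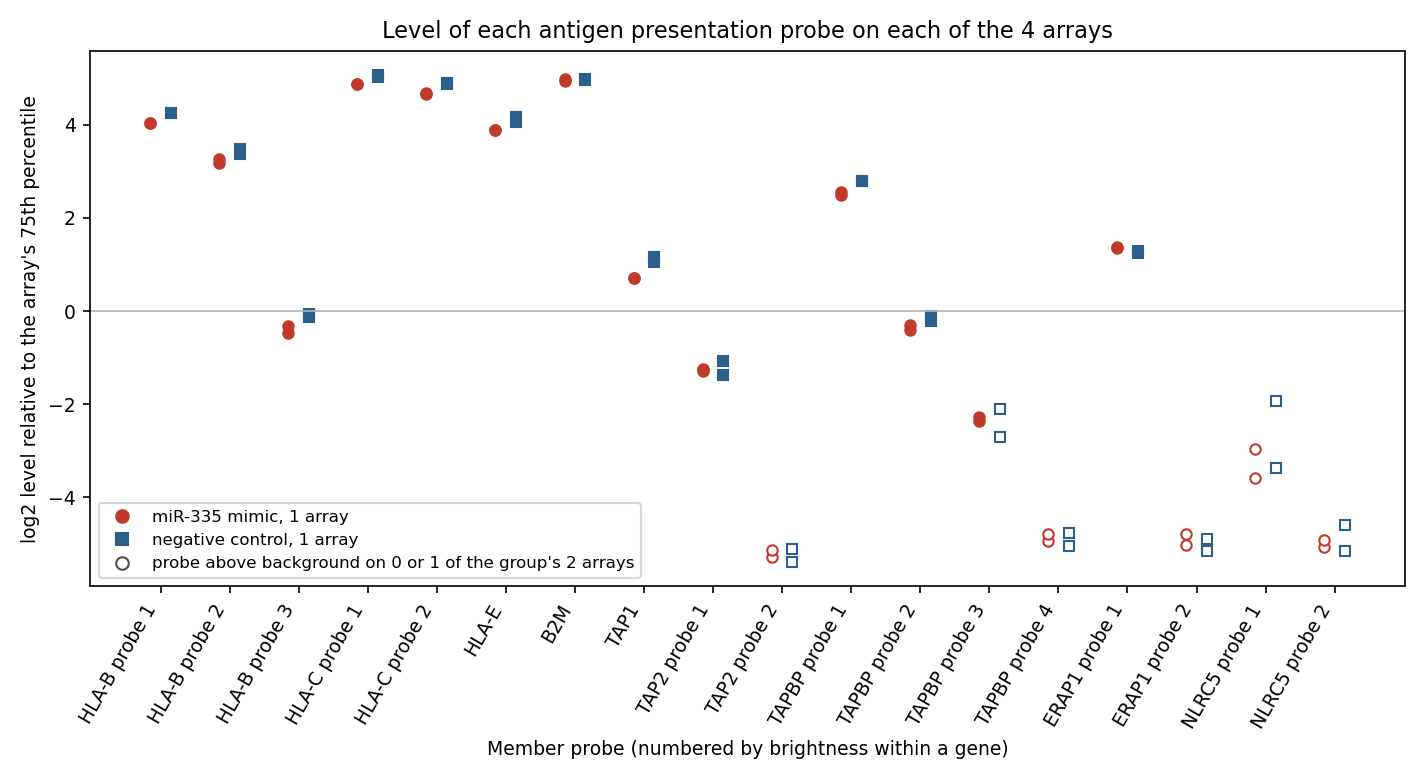
Level of each of the 18 member probes (x axis, numbered by brightness within a gene) on each array, as log2 relative to the 75th percentile of that array (y axis). Red circles are mimic arrays, blue squares control arrays, and open symbols mark a group in which the probe was well above background on 0 or 1 array; the 6 HLA probes, TAP1 and 2 TAPBP probes show both circles under both squares, while B2M and TAP2 overlap.

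TAP1, which forms the peptide transporter with TAP2, showed the widest difference among the tested members. Its probe, at chr6:32813210-32813269 on the minus strand, read 0.71 and 0.70 with the mimic and 1.17 and 1.06 in the controls. In scanner units these were 310.2 and 298.1 against 402.9 and 378.6. The mimic arrays were nearly identical and lay under both controls, at 75.3% of the control level. The difference was -0.41 (SE 0.05, 95% interval -0.57 to -0.25), and its adjusted p of 0.0648 missed the threshold of 0.05. TAP2 had a wide spread in the controls. Its measured probe, at chr6:32793222-32793281, read -1.25 and -1.29 with the mimic and -1.38 and -1.07 in the controls, so that the controls lay on either side of the mimics. The difference was -0.04 (SE 0.12, adjusted p = 0.849), with a 95% interval from -0.40 to 0.31 that overlaps that of TAP1. Without control 1 the value was -0.20, and without control 2 it was 0.11. A further TAP2 probe, at chr6:32789804-32789863, was not well above background on any array.

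Tapasin mRNA was read by 4 probes that differed among themselves. The brightest, at chr6:33267718-33267777 on the minus strand, read 2.56 and 2.50 with the mimic and 2.80 and 2.80 in the controls, a difference of -0.27 (SE 0.04, adjusted p = 0.0785). The next, at chr6:33271911-33271970, read -0.40 and -0.29 against -0.11 and -0.20, a difference of -0.19 (adjusted p = 0.186). Both showed mimic arrays under control arrays. A dim probe whose position spans chr6:33273141-33281029 was well above background on 3 arrays, and read -2.28 and -2.36 with the mimic and -2.69 and -2.10 in the controls. Its difference of 0.08 had an interval from -0.57 to 0.73, so it measured little. The last TAPBP probe was not well above background on any array.

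ERAP1, the trimming enzyme, was the member that read higher with the mimic. Its measured probe, at chr5:96110216-96110275 on the minus strand, read 1.35 and 1.38 with the mimic and 1.26 and 1.30 in the controls. The groups did not overlap, but the difference of 0.09 (SE 0.04, adjusted p = 0.273) had an interval from -0.03 to 0.20. Its other probe was not well above background on any array. NLRC5, the class I transactivator, was barely measurable. The probe at chr16:57077428-57077487 read -2.96 and -3.58 with the mimic and -1.94 and -3.36 in the controls, and it was well above background on control 1 only. The probe at chr16:57116822-57116881 was so on no array. Neither was tested, and no fold is given for NLRC5.

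**Figure D2:**
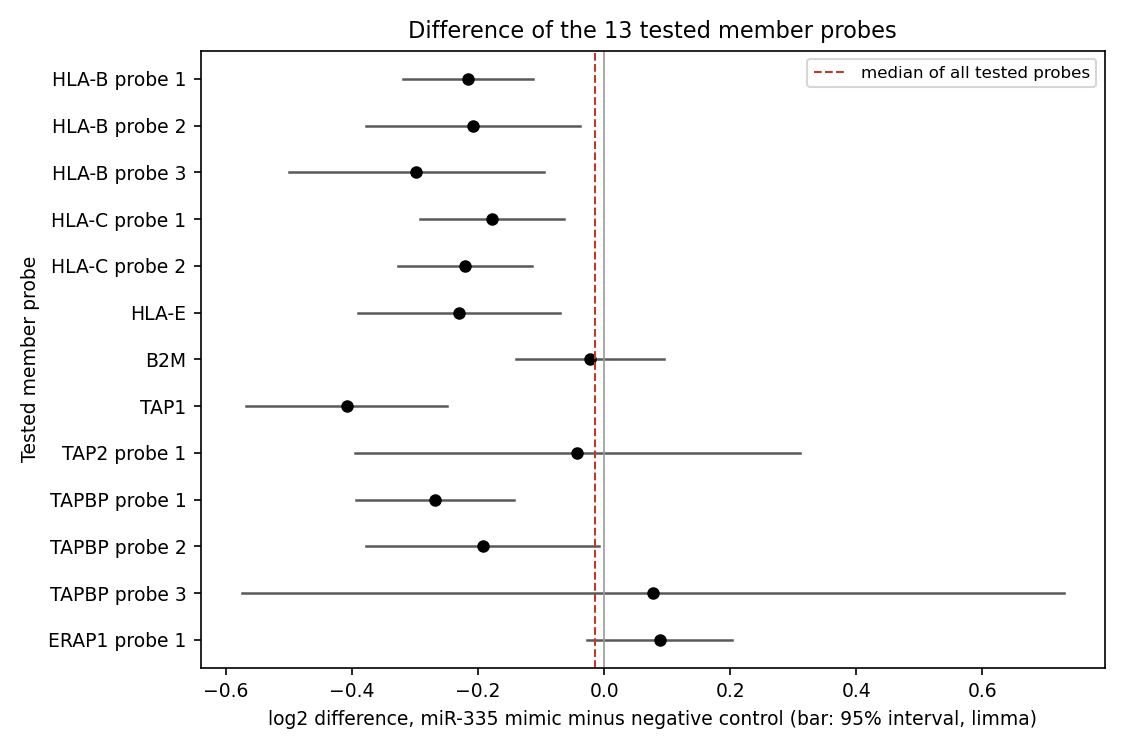
Difference of each of the 13 tested member probes (points, log2, mimic minus control, x axis) with its 95% interval from limma (bars). The 6 HLA probes, TAP1 and 2 TAPBP probes have intervals under 0, those of B2M, TAP2, ERAP1 and the dim TAPBP probe cross 0, and the dashed line is the median of all 20328 tested probes at -0.01.

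Of the 18 member probes, 13 were tested and 5 were too dim. Under limma with adjustment over all probes, 0 of the 13 were called lower, where 1.15% of all tested probes were, and 0 were called higher, against 1.47% of all. At an unadjusted p under 0.05, 9 of the 13 were lower and 0 higher, against 13.7% of all tested probes that were lower. Both mimic arrays lay under both control arrays on 9 of the 13, compared with 32.5% of all probes, and over them on 1, compared with 27.1%. No member probe was more than 1.5-fold lower, a limit that 1.47% of all probes passed. Counted by gene, with the brightest tested probe of each, 7 of 8 differences were negative with a median of -0.20. Over all tested probes 53.8% were negative, with a median of -0.01. The member probes are not independent readings, since 3 of the HLA probes overlap in sequence and all share 4 arrays. In the count by gene, HLA-C is read by A_33_P3424803, which does not separate it from HLA-B. An exact permutation test on a single probe could not go below p = 0.333 with 2 arrays against 2.

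The calls depended on the background correction, the variance model and the scaling. After normexp background correction of the mean spot signal, 5 member probes were called lower, with 3.73% of all probes called lower. They were TAP1 (-0.34, adjusted p = 0.0118), HLA-E (-0.27, 0.0295), TAPBP (-0.23, 0.0382), HLA-C probe A_33_P3330109 (-0.22, 0.0416) and HLA-B probe A_33_P3424800 (-0.21, 0.0452). When the variance was modelled with a trend on intensity, 7 of 13 member probes were called lower, where 8.54% of all were. These were 2 probes of HLA-B, both probes of HLA-C, and 1 probe each of HLA-E, TAP1 and TAPBP. When the arrays were scaled on the spike-in RNAs, read by 7 probes, the median of all tested probes moved to -0.20. Then 44.9% of all probes were called lower and 10 of the 13 members with them, B2M included at -0.21. Relative to that shift the members' median was -0.18, as it was relative to all probes under the 75th percentile. Quantile normalization and scaling to the median of detected probes called 0 members by limma, with 9 and 10 of the 13 at an unadjusted p under 0.05 in either direction, against 25.3% and 26.2% of all probes. Under all 5 scalings the 6 HLA probes, TAP1 and the brightest TAPBP probe were lower with the mimic, whereas the sign of B2M turned under quantile normalization, that of TAP2 under normexp and that of ERAP1 under the spike-ins.

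**Figure D3:**
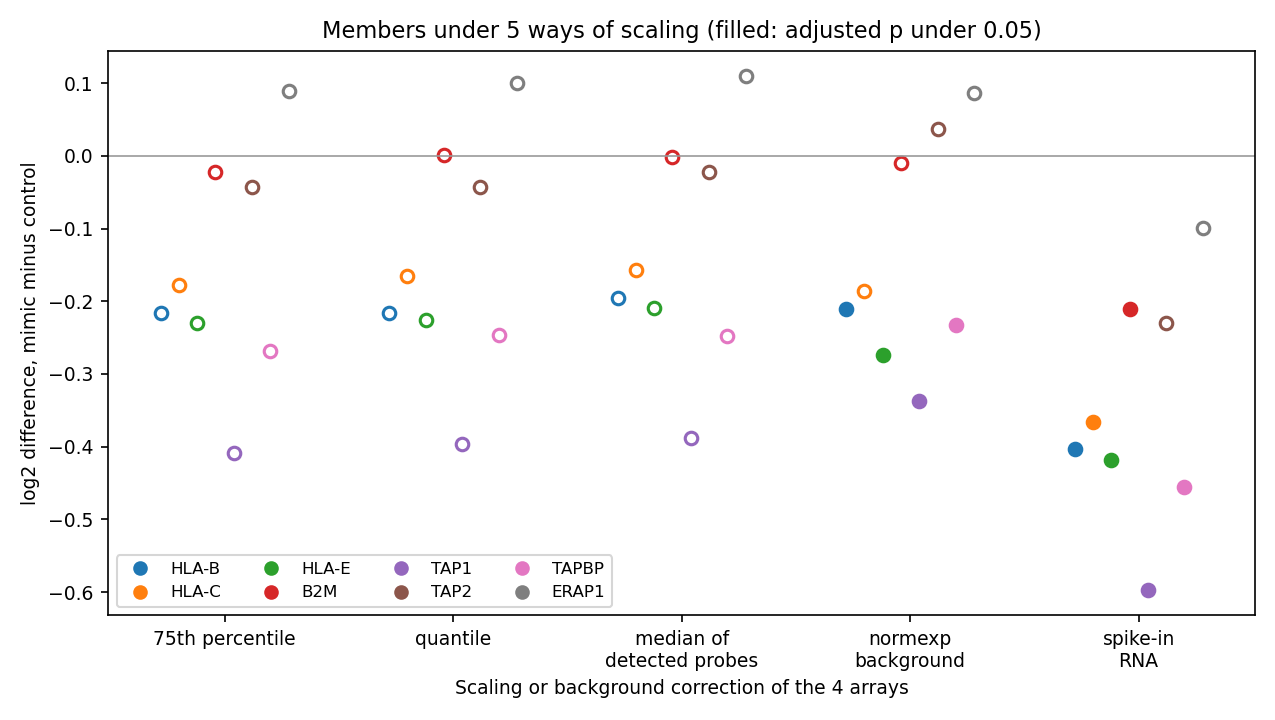
Difference of the brightest tested probe of 8 member genes (log2, mimic minus control, y axis) under 5 ways of scaling or background correction (x axis), filled where the adjusted p of limma was under 0.05. HLA-B, HLA-C, HLA-E, TAP1 and TAPBP lie under 0 in each column, B2M, TAP2 and ERAP1 lie near 0 until the spike-in column, and that column sits lower throughout, as did all probes (median -0.20). The HLA-C point is probe A_33_P3424803, which does not separate HLA-C from HLA-B.

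The other genes of the pathway were described from a list of 36, of which 33 were tested and 0 were called in either direction by limma. At an unadjusted p under 0.05, 9 were lower and 2 higher, where 13.7% of all tested probes were lower and 11.7% higher. The median difference was -0.05, with 23 negative (69.7%, against 53.8% of all probes) and 10 positive. Among genes of peptide supply 6 of 6 differences were negative, 4 of them at an unadjusted p under 0.05, and a median of -0.12. PSMB8, an interferon-inducible subunit of the immunoproteasome, read 1.33 and 1.28 with the mimic and 1.61 and 1.57 in the controls, a difference of -0.28 (adjusted p = 0.0723). PSMB9, a further immunoproteasome subunit whose gene shares a promoter with TAP1, read 1.84 and 1.87 against 1.99 and 1.96, a difference of -0.12 (adjusted p = 0.179). PSME2, a subunit of the proteasome activator PA28, differed by -0.18 (adjusted p = 0.182). Both control arrays were above both mimic arrays for each of these 3 genes. Among the 6 genes of peptide supply this held for 4, compared with 32.5% of all tested probes.

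The other heavy chains described were HLA-F and HLA-G, both negative on their brightest probes. HLA-G differed by -0.17 (adjusted p = 0.178) and HLA-F by -0.09. Heavy chain genes are close in sequence, so their probes may share signal. ERAP2, the partner of ERAP1 in trimming, read 2.81 and 2.89 with the mimic and 3.13 and 3.09 in the controls, a difference of -0.26 (adjusted p = 0.0928), opposite in sign to ERAP1. The loading and trimming group had 3 negative and 3 positive differences, with HSPA5, the chaperone BiP, at 0.08 (adjusted p = 0.457).

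Regulators were split, with 6 of 11 tested negative and a median of -0.02. NFYB, a subunit of NF-Y, which binds CCAAT boxes, read -0.12 and -0.09 with the mimic and 0.28 and 0.19 in the controls. Its difference of -0.34 (adjusted p = 0.0721) was the lowest among the other pathway genes on their brightest probes. Whether the NF-Y subunits differed from each other was not tested. NFYA differed by -0.07 (adjusted p = 0.747) on its brighter probe, with a 95% interval from -0.42 to 0.28 that contains the NFYB value. Its dimmer probe differed by 0.50 (adjusted p = 0.0916). The probes of NFYC ranged from -0.06 to 0.06. RFXAP, a subunit of RFX, read 0.40 and 0.51 against 0.10 and 0.27, and differed by 0.27 (adjusted p = 0.172). EZH2, the methyltransferase of Polycomb repressive complex 2, differed by 0.19 (adjusted p = 0.158). IRF1, an interferon-induced transcription factor, differed by -0.17 (adjusted p = 0.452), with control 2 apart from the other 3 arrays at 1.27. IFNGR1, a chain of the interferon gamma receptor, differed by 0.07 (adjusted p = 0.593). Among class I related chains, MICB, a ligand of the receptor NKG2D, differed by 0.08 (adjusted p = 0.503) on its brighter probe and by -0.21 (adjusted p = 0.116) on its dimmer one.

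**Figure D4:**
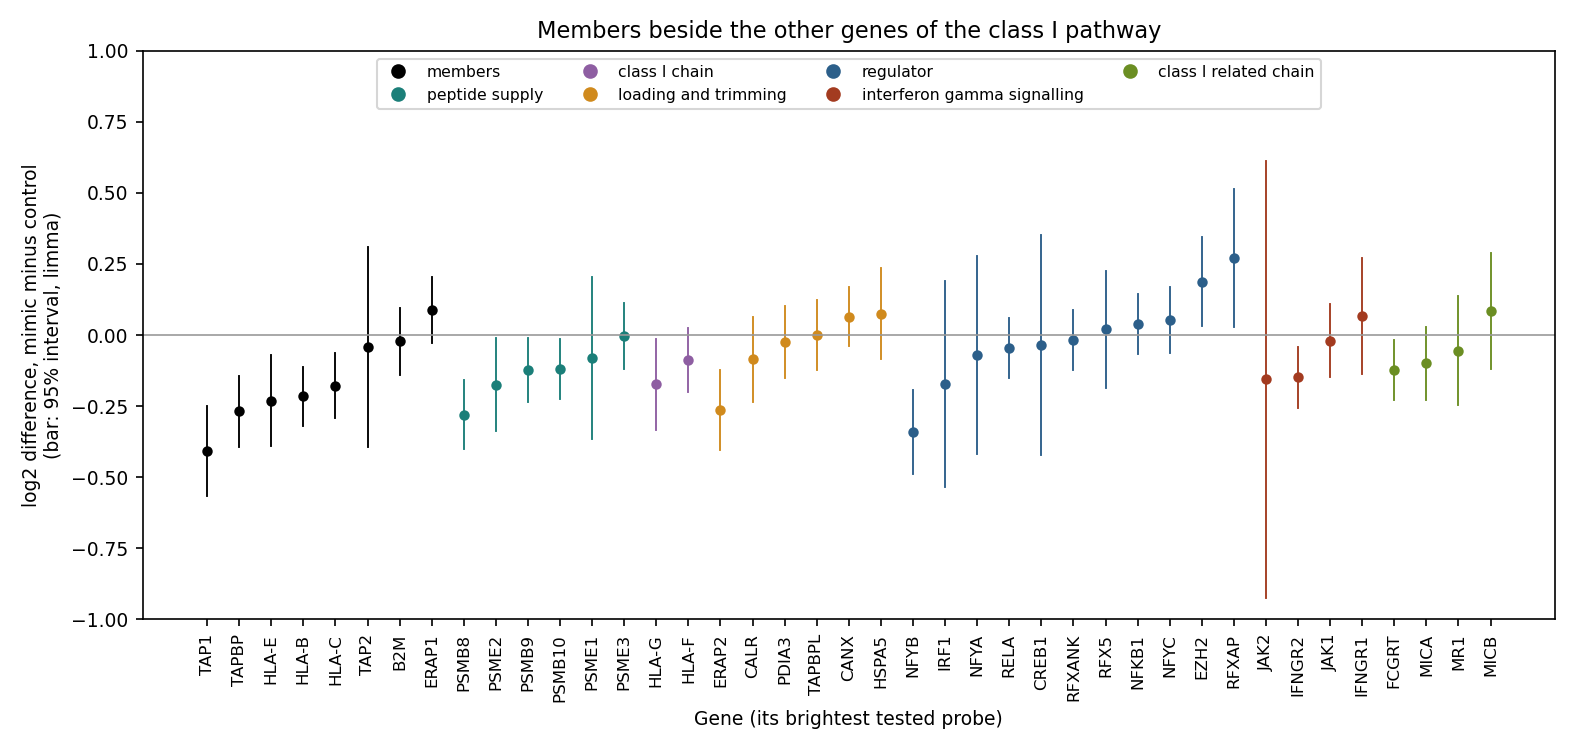
Difference of 8 member genes and 33 other class I pathway genes by role (log2, mimic minus control, y axis), each on its brightest tested probe, with its 95% interval from limma (bars). All peptide supply points lie at or under 0, the regulators lie on both sides from NFYB at -0.34 to RFXAP at 0.27, and JAK2 has the widest interval. The HLA-C point is again probe A_33_P3424803.

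MHC class II, which presents outside antigens and is normally made by professional antigen-presenting cells, was largely at background. Of its 12 genes, 2 were tested, 0 were called by limma and 0 had an unadjusted p under 0.05. The class II transactivator CIITA, the invariant chain CD74 and HLA-DRA were not well above background on any array. HLA-DRB1 differed by -0.11 (adjusted p = 0.453) and HLA-DPA1 by -0.08 (adjusted p = 0.840). The GIST markers KIT, ANO1, ETV1, PDGFRA, CD34 and PRKCQ were well above background on all 4 arrays. On their brightest probes all 6 had negative differences, 5 of them with both mimic arrays under both controls, compared with 32.5% of all tested probes. By limma 0 were called and 2 had an unadjusted p under 0.05, where 13.7% of all tested probes were lower at that level. Their dimmer probes went both ways, from an ANO1 probe at 0.47 (adjusted p = 0.0533) to an ETV1 probe at -0.24 (adjusted p = 0.228). KIT, the receptor kinase typical of GIST, read 7.14 and 7.17 with the mimic and 7.49 and 7.48 in the controls on its brightest probe, a difference of -0.33 (adjusted p = 0.0512). The summed level of this list was 8.12 to 8.15 with the mimic and 8.34 to 8.36 in the controls, and its part in the differences of the members was not tested. The epithelial markers KRT18 and EPCAM were also well above background on all 4 arrays, and CDH1 was not so on any. KRT18 differed by 0.01 (adjusted p = 0.834) on its brightest probe, which read 6.54 and 6.51 against 6.53 and 6.49. EPCAM read -2.15 and -1.76 with the mimic and -0.54 and -1.59 in the controls. Its difference of -0.89 (adjusted p = 0.287) had an interval from -2.10 to 0.32. The endothelial markers PECAM1 and VWF and the leukocyte markers PTPRC, CD3E and NKG7 were not well above background on any array. Of 7 immune markers listed, 6 were on the array by that name and 2 of these, CD14 and ITGAM, were well above background on all 4 arrays. These 2 differed in opposite directions, CD14 by 0.13 (adjusted p = 0.701) and ITGAM by -0.28 (adjusted p = 0.0671). Of the 10 probes of the immune list, 7 were never well above background. The summed level over its probes with a value on every array was -0.25 to -0.20 with the mimic and -0.13 to 0.00 in the controls, and its part in the differences of the members was not tested.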

How the data were processed

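The deposited scanner files hold, per the file headers, the spot intensity from Agilent Feature Extraction 10.7.3.1 (10.7 in the submitters' processing notes), background-subtracted and detrended within each array but not normalized between arrays. The deposited series table holds the same intensity rounded by the authors, and 0 of its columns were unmatched. The authors' methods name GeneSpring GX, whose normalized values were not used here. Of 62976 spots per array, 58717 were not controls and gave 50599 probes. Outlier spots were left out (4 among the member spots), replicate spots were averaged on the log2 scale, and the array's 75th percentile was subtracted. A probe was well above background where at least 0.5 of its spots were flagged so, and was tested where this held on both arrays of at least 1 group. The test was limma (version 3.58.1, R 4.3.3) with lmFit and eBayes and no covariates, a threshold of 0.05 after Benjamini-Hochberg adjustment, and 95% intervals. The number of arrays (4) limits the precision. The fit was tested on simulated data first. The alternatives were normexp (offset 50), quantile, detected-median and spike-in scaling, the series table, other filters on dim probes, outlier spots kept, eBayes with a trend or robust, the methods' t-test, a replicate block, and leaving out each array. All members were named with every probe. Of the other pathway genes, those called were to be named, and otherwise the 5 with the lowest and the 5 with the highest difference. PSMB9, IRF1, JAK2, HLA-F, NFYA and NFYC, outside that rule, were chosen after their values were seen. The members and lists were chosen with earlier results of these data known, and some listed genes are not reported here. Positions are those of the files (hg19) for probes and of RefSeq (GRCh38.p14) for microRNAs and promoters. Of the 18 member probes, 15 had a transcript accession in the RefSeq table.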

Additional observations from a re-analysis of the deposited data

How the results depend on the processing

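The number of probes called over the whole array was 532 (233 lower, 299 higher) and moved with the setting. It was 1550 after normexp, 3083 with an intensity trend, 9642 with spike-in scaling (9131 lower, 511 higher) and 4115 by the methods' t-test unadjusted, which called 0 after adjustment. It was 0 with no filter on dim probes (3627 at an unadjusted p under 0.05), 0 with probes above background on at least 1 array (4696), and 0 to 295 when each array was left out. There limma took the lone array to vary like the other group. Member probes called went from 0 to 5 after normexp, 7 with a trend, 10 with spike-ins and 5 by the methods' t-test unadjusted. Of the 33 other pathway genes tested, the number called went from 0 to 3, 8, 19 and 9 under the same 4 settings. Class II stayed at 0 called in each. The median difference of the member genes moved from -0.20 to -0.38 with spike-ins. The sign of B2M turned under quantile normalization (0.0016) and when mimic replicate 1 was left out (-0.047 to 0.0021 over the 4 arrays), that of TAP2 after normexp (0.037) and without control replicate 2 (-0.20 to 0.11 over the 4 arrays), and that of ERAP1 with spike-ins (-0.10). Among the gene values with an adjusted p, 116 kept their sign and side of the threshold, 15 passed it and 5 turned sign. By the unadjusted t-test 4 of 8 genes were under 0.05, where 4115 of all 20328 tested probes were. HLA-B, HLA-C, HLA-E, TAP1 and TAPBP stayed negative in every setting run. The value for HLA-C here is that of A_33_P3424803, which does not separate it from HLA-B. TAP1 ranged from -0.47 to -0.35 when each array was left out, with adjusted p from 0.125 to 0.238.

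With a replicate block, limma called 0 probes (4400 at an unadjusted p under 0.05), 0 members and 0 pathway genes, and TAP1 had an adjusted p of 0.143. The deviations of same-numbered arrays correlated at 0.03 across probes. A low correlation cannot show that such arrays had no culture or day in common, and the labels give them only a number. A block on slide or scan could not be fitted, since there was 1 of each. Dim signal limits NLRC5 and 10 of the 12 class II genes, which were not tested.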
